A study of Rattus norvegicus with 9 samples.

Results

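The 5 housekeeping genes of a rat osteogenesis PCR array, *Actb*, *B2m*, *Hprt1*, *Ldha* and *Rplp1*, were described across healthy and healing patellar entheses. They were chosen by name as the wells of plate row H that the array reserves for reference genes, and they make up 5 of its 89 genes, the other 84 being target genes. The readout was the threshold cycle (Ct), the PCR cycle at which fluorescence crosses a fixed line, so that 1 cycle earlier stands for 2-fold more template. Adult male Sprague Dawley rats were operated on at the insertion of the patellar tendon into the tibia, and native tissue came from uninjured contralateral knees. The scaffold groups had the defect filled with a silk fibroin scaffold whose bone-like and tendon-like ends blend into each other (S-MT) or meet abruptly (S-AT). The scaffold-free control groups were an empty defect with the tendon stitched to the bone (ED) and a transversal cut of the tendon that spared the bone (TC). For TC the sample label reads tendon-to-tendon suture whereas the methods describe a cut left untreated, and which holds is not settled by the sources used here. Each was taken at 4 and 12 weeks (4W and 12W), which with native tissue gives 9 groups, and the label of the native sample reads 4 weeks. All operated animals carried a surgical injury, so that the control groups are injury controls and not untreated tissue.

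Each group is represented by 1 Ct per gene. The paper states that several rats per group and time point were used for PCR. Whether this Ct stands for 1 of them, for their average or for pooled RNA is not given in the sources used here. There was therefore no replicate, no error and no test, and each difference below sets 1 value against another. A technical yardstick was available from control wells, where 18 sets of 3 wells had a pooled SD of 0.0633 cycles, or 0.0895 cycles for a difference between 2 wells. These wells crossed the line at an earlier Ct than most of the genes and carry no variation between animals, so this SD is a lower limit. In tissue as mixed as the enthesis, fewer cells of a type and less RNA per cell cannot be told apart. Tendon and bone matrix collagens *Col1a1* and *Col1a2* and the fibrocartilage genes *Col2a1* and *Comp* were within the Ct cut-off of 35 in all 9 groups, whereas the osteoblast marker *Sp7* was within it in 1.

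Reference genes are used in quantitative PCR because they serve every cell, and the level of a target gene is read as its Ct minus theirs. Such a reading holds only while the reference genes stay level with each other. *Actb* encodes beta-actin of the cytoskeleton, *B2m* the light chain of MHC class I molecules, *Hprt1* an enzyme of purine salvage, *Ldha* the lactate dehydrogenase subunit that closes glycolysis by turning pyruvate into lactate, and *Rplp1* an acidic protein of the large ribosomal subunit. Some of them are regulated genes as well, *Actb* in spreading and contracting cells, *B2m* by interferon and *Ldha* under low oxygen. The study took the average of *Rplp1* and *Ldha* as the reference for its targets.

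In the rat assembly GRCr8 the genes lie on separate chromosomes, *Actb* at chr12:16776664-16779634, *B2m* at chr3:129549236-129555354, *Hprt1* at chrX:137655744-137687718, *Ldha* at chr1:106508092-106517512 and *Rplp1* at chr8:71289539-71290872. The RefSeq table lists 30 pseudogenes named after *Ldha*, 10 after *Actb*, 3 each after *Hprt1* and *Rplp1*, and 0 after *B2m*. Where in a transcript each assay binds is not given in the sources used here. The promoter windows of the 2 genes the study normalized to are shown because these genes parted from each other in the scaffold-free groups. They are the 250 bases before each gene's start in RefSeq GRCr8, chr1:106507842-106508091 on the plus strand for *Ldha* and chr8:71290873-71291122 on the minus strand for *Rplp1*, written 5′ to 3′ along the gene. Capitals mark ACGTG on either strand, the core letters of the hypoxia response element.
Ldha: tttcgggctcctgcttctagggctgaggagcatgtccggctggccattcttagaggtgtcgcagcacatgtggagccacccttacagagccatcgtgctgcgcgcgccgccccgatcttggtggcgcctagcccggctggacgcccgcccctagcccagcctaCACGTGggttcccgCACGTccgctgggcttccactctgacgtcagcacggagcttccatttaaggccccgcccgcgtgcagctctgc
Rplp1: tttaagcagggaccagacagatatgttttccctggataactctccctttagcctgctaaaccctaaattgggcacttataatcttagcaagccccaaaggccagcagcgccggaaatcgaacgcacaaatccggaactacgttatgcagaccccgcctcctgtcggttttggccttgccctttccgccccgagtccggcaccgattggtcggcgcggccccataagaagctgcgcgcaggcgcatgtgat
The *Ldha* window held 3 matches, of which 2 overlap in a palindrome that begins at -87 from the gene's start and the last begins at -73. The windows of *Rplp1*, *B2m* and *Hprt1* held 0. Among 33469 rat windows of this length 5547, or 16.6%, held at least 1 match. A match describes letters and is not a binding site.

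Raw Ct fell into tiers by group before any normalization, and values of a treatment are given at 4 weeks, then at 12 weeks. *Actb* crossed at 30.2 in native tissue, at 26.0 then 25.1 with S-MT, at 26.3 then 25.1 with S-AT, at 27.9 then 28.5 after ED, and at 29.4 then 32.1 after TC. The 4 scaffold samples were the earliest, and their range of 25.1 to 26.3 did not overlap that of the scaffold-free samples, 27.9 to 32.1. *B2m* crossed at 29.4 in native tissue, at 26.5 then 24.5 with S-MT, at 26.0 then 23.9 with S-AT, at 27.8 then 27.8 after ED, and at 28.9 then 31.1 after TC. It had the same split, with 23.9 to 26.5 in scaffold and 27.8 to 31.1 in scaffold-free samples. *Hprt1*, the latest of the 5 in 7 groups, crossed at 33.2 in native tissue, at 29.5 then 28.9 with S-MT, at 29.5 then 29.9 with S-AT, at 30.7 then 30.3 after ED, and at 32.4 then 36.2 after TC. The last value lies over the cut-off of 35, was set to 35 as the study does, and makes every *Hprt1* fold at TC 12W a bound. *Hprt1* split likewise, at 28.9 to 29.9 in scaffold and 30.3 to 36.2 in scaffold-free samples. Raw Ct also follows the amount of template, and the share of target genes with such a split was not counted.

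*Ldha* and *Rplp1* did not show that split. *Ldha* crossed at 31.5 in native tissue, at 28.4 then 28.0 with S-MT, at 28.4 then 27.4 with S-AT, at 31.0 then 27.4 after ED, and at 32.5 then 31.2 after TC. Its ED 12W value was as early as the earliest scaffold sample, S-AT 12W, while ED 4W was 0.52 cycles earlier than native tissue. *Rplp1* crossed at 28.5 in native tissue, at 25.2 then 24.8 with S-MT, at 25.3 then 24.1 with S-AT, at 25.3 then 25.1 after ED, and at 27.1 then 28.3 after TC. It had the narrowest span of the 5 genes, 4.40 cycles, against 5.11 for *Ldha* and 6.93 to 7.33 for the other 3.

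**Figure D1:**
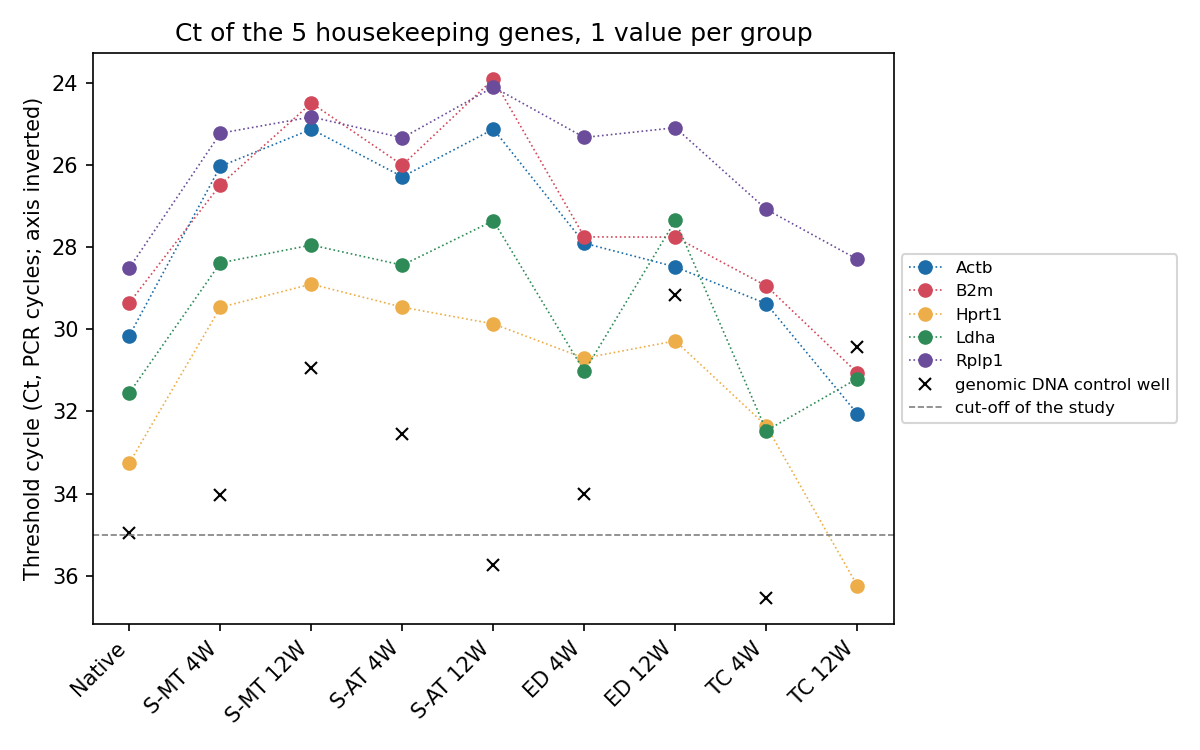
Threshold cycle (Ct, in PCR cycles, axis inverted so that more template is higher) of the 5 housekeeping genes and of the genomic DNA control well in the 9 groups, 1 value per group; the dashed line is the cut-off of 35. All 5 genes crossed earlier in the 4 scaffold samples than in native tissue, and at TC 12W 4 of them crossed later than the genomic DNA control well.

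How much template a plate received moves all 5 genes together. Relative to native tissue they crossed 3.38 to 5.44 cycles earlier in S-AT 12W and 2.87 to 4.12 cycles earlier in S-MT 4W. In TC 12W the deposited Ct of *Hprt1* was 2.99 cycles later than native and that of *Rplp1* 0.21 cycles earlier. The reverse transcription control wells had a mean Ct between 22.0 and 25.1, a spread of their own that was smaller than that of any member. The well that by the maker's usual layout detects genomic DNA crossed at 34.9 in native tissue, at 34.0 then 30.9 with S-MT, at 32.5 then 35.7 with S-AT, at 34.0 then 29.2 after ED, and at 36.5 then 30.4 after TC. It was earliest in ED 12W, TC 12W and S-MT 12W. *Hprt1* crossed later than this well in ED 12W, and *Actb*, *B2m*, *Hprt1* and *Ldha* did so in TC 12W, where *Rplp1* was 2.12 cycles ahead of it. The positive PCR control wells had a mean Ct of 19.1 to 21.9 in 8 groups and 26.0 in S-AT 12W. The part of genomic DNA and of PCR efficiency in the results of ED 12W, TC 12W and S-AT 12W was not tested.

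Differences between genes within a sample cancel the amount of template and need no reference. The assays amplify different products, so the sign of a Ct difference does not rank transcripts by abundance, and only its change across groups was read. The study's pair, *Ldha* minus *Rplp1*, was 3.04 cycles in native tissue, 3.15 then 3.12 with S-MT, 3.10 then 3.25 with S-AT, 5.69 then 2.26 after ED, and 5.38 then 2.90 after TC. Native and scaffold samples thus spanned 0.211 cycles, and the 4 scaffold-free samples 3.43. At 4 weeks the 2 scaffold-free samples stood over 2 cycles above all others, and at 12 weeks they were the lowest of the 9.

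*Actb* minus *Ldha*, the widest of the 10 pairs with an SD of 1.61 cycles over the groups, was -1.39 in native tissue, -2.35 then -2.82 with S-MT, -2.15 then -2.23 with S-AT, -3.12 then 1.13 after ED, and -3.09 then 0.86 after TC. It changed sign between 4 and 12 weeks in both scaffold-free treatments and in neither scaffold treatment. *Actb* minus *B2m* was the steadiest pair with an SD of 0.498 cycles and a span from -0.45 in S-MT 4W to 1.22 in S-AT 12W. Over all 10 pairs the median SD was 1.17 cycles, and 7 pairs had an SD over 1 cycle, which is 2-fold. The 120 pairs among the 16 target genes within the cut-off in all groups had a higher median SD, 1.64 cycles. How many of those exceeded 1 cycle was not counted. Each of the 10 SDs was over 5 times the well-to-well SD of 0.0895, although that yardstick holds no animal-to-animal variation.

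Set against *Rplp1*, the cytoskeletal and the MHC gene separated scaffold from scaffold-free samples. *Actb* minus *Rplp1* was 1.65 in native tissue, 0.81 then 0.30 with S-MT, 0.95 then 1.02 with S-AT, 2.57 then 3.39 after ED, and 2.30 then 3.76 after TC. All scaffold samples lay below native tissue and all scaffold-free ones above it, that is, with less *Actb* per *Rplp1*. *B2m* minus *Rplp1* was 0.85 in native tissue, 1.25 then -0.34 with S-MT, 0.66 then -0.20 with S-AT, 2.42 then 2.66 after ED, and 1.86 then 2.76 after TC. The scaffold and scaffold-free ranges did not overlap for these 2 of the 4 members set against *Rplp1*, compared with 13.6% of the 22 target genes measured in all operated samples. *Actb* minus *Hprt1*, at -4.74 to -3.17 in scaffold and -2.97 to -1.80 in scaffold-free samples, was the remaining pair without overlap among the 10, and it overlapped when *Hprt1* in TC 12W was left as deposited (-4.18).

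**Figure D2:**
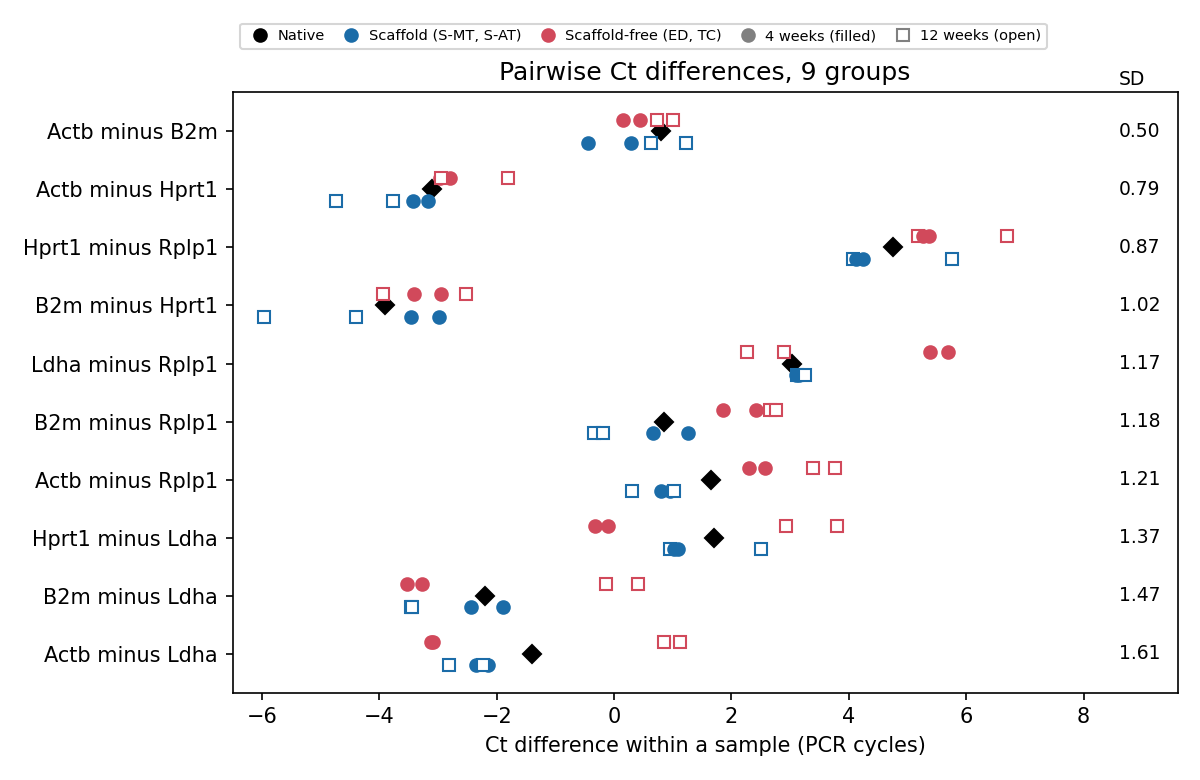
Ct difference within a sample (PCR cycles, horizontal axis) for the 10 pairs of housekeeping genes, with native tissue in black, scaffold samples in blue and scaffold-free samples in red, filled at 4 and open at 12 weeks; the number at the right is the SD over the 9 groups. *Ldha* minus *Rplp1* is tight at 3.04 to 3.25 in native and scaffold samples and spreads from 2.26 to 5.69 in scaffold-free ones.

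The mean SD of a gene's 4 pairs gives an order of stability, lower being steadier. Over the 9 groups it was 1.01 cycles for *Hprt1*, 1.03 for *Actb*, 1.04 for *B2m*, 1.11 for *Rplp1* and 1.40 for *Ldha*. The first 4 lay within 0.1 cycles of each other, and *Hprt1* moved to 1.21 when its TC 12W value was left as deposited, so that their order was not settled. *Ldha* was the least steady in either case. In native and scaffold samples alone the order was another, with *Rplp1* at 0.490, *Ldha* at 0.495, *Actb* at 0.573, and *B2m* and *Hprt1* both at 0.796. In the 4 scaffold-free samples alone *Ldha* was at 2.06 and the other 4 genes between 0.857 and 0.996.

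For levels over native tissue each gene was read against housekeeping genes of the other set, *Actb*, *B2m* and *Hprt1* against the mean of *Ldha* and *Rplp1*, and *Ldha* and *Rplp1* against the mean of the other 3. The readings are thus opposite by construction, and what one set gains the other loses. A value of at least 2-fold, the study's threshold, was counted as called, beside the share of target genes within the cut-off in both groups that reached 2-fold under the same reference. Of 24 values for *Actb*, *B2m* and *Hprt1*, 3 were called higher and 5 lower. Of 16 values for *Ldha* and *Rplp1*, 5 were called higher and 4 lower.

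*Actb*, the cytoskeletal gene, was 2.62-fold higher than native in S-MT 12W, 4.38-fold lower in ED 12W and 4.53-fold lower in TC 12W. The S-MT 12W difference became 0.06 on the log2 scale when the reference was the median Ct of the 16 target genes within the cut-off in all groups. On that scale its differences from native by the study's reference were 0.90 then 1.39 with S-MT, 0.73 then 0.73 with S-AT, 0.40 then -2.13 after ED, and 0.52 then -2.18 after TC. Both scaffold-free treatments were within 2-fold of native tissue at 4 weeks and over 4-fold below it at 12 weeks by this reference. At 4 weeks *Actb* differed from native by 1.73 in ED and 1.70 in TC against *Ldha* alone. Against *Rplp1* alone it differed by -0.92 and -0.65. *B2m* was 2.33-fold higher in S-MT 12W, which turned to a log2 difference of -0.10 with the median of target genes, and 2.22-fold higher in S-AT 12W. It was 4.62-fold lower in ED 12W and 3.95-fold lower in TC 12W, and its log2 differences at 4 weeks were between -0.35 and 0.21. In ED 4W and TC 4W, where *Ldha* and *Rplp1* had parted, the differences were 1.08 and 1.33 against *Ldha* alone and -1.57 and -1.02 against *Rplp1* alone. *Hprt1* was at least 4.07-fold lower in TC 12W, and its other 7 log2 differences lay between -0.91 and 0.72. In ED 4W and TC 4W its differences were 2.03 and 1.82 against *Ldha* alone and -0.62 and -0.53 against *Rplp1* alone.

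*Ldha*, set against the other 3, was lower than native at 4 weeks and higher at 12 weeks in both scaffold-free treatments. It was 3.06-fold lower in ED 4W and 3.06-fold lower in TC 4W, then 4.33-fold higher in ED 12W and at least 4.38-fold higher in TC 12W, and with the median of target genes these last 2 became log2 differences of 0.33 and -0.053, under 2-fold. The TC 12W value would be 5.83-fold with the deposited Ct of *Hprt1*. In scaffold samples its log2 differences were -0.43 then -1.15 with S-MT and -0.56 then -0.43 with S-AT, of which the S-MT 12W value, 2.22-fold lower, was called. *Rplp1*, a gene of the translation machinery, was 2.06-fold higher than native in ED 4W, 2.52-fold in ED 12W and at least 3.98-fold in TC 12W, the last 2 turning to -0.45 and -0.19 on the log2 scale with the median of target genes. The ED 4W value lay near the threshold and fell below 2-fold with that median (0.11), with *Actb* (0.92) or *Hprt1* (0.62) alone and with an amplification of 1.9 per cycle (0.96). It was 2.10-fold lower in S-MT 12W. Against *Rplp1* alone *Ldha* differed from native by -2.65 in ED 4W, -2.34 in TC 4W, 0.78 in ED 12W and 0.14 in TC 12W, so that both 12-week values were within 2-fold of native when read against the ribosomal gene.

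By group, 0 of the 3 and 0 of the 2 genes were called in S-MT 4W, where 50% and 55% of 20 target genes were, and likewise 0 and 0 in S-AT 4W, where 55% and 55% were. In S-MT 12W 2 of 3 and 2 of 2 were called, beside 55% and 75% of 20 target genes. In S-AT 12W 1 of 3 and 0 of 2 were called, beside 78.9% and 84.2% of 19. No member thus passed 2-fold in either scaffold group at 4 weeks against these housekeeping references. With the median of target genes *B2m* (-1.75), *Ldha* (-1.46) and *Rplp1* (-1.34) in S-MT 4W were over 2-fold lower on the log2 scale. So were *Ldha* (-1.14) and *Rplp1* (-1.08) in S-AT 4W, while the other members stayed under 2-fold. In ED 4W 0 of 3 and 2 of 2 were called, beside 65% and 60%, and in ED 12W 2 of 3 and 2 of 2, beside 40% and 75% of 20. In TC 4W 0 of 3 and 1 of 2 were called, beside 52.9% and 47.1% of 17, and in TC 12W 3 of 3 and 2 of 2, beside 40% and 85% of 20. No housekeeping gene passed 2-fold in all 8 operated groups. Read against the mean of the other 4 members, *Actb* and *B2m* in S-MT 12W (1.87-fold and 1.62-fold) and *B2m* in TC 12W (1.91-fold) no longer reached 2-fold, *Hprt1* in TC 12W had a bound of 1.98-fold, and *Ldha* (1.84-fold) and *Rplp1* (1.72-fold) in S-MT 12W and *Rplp1* in ED 12W (1.75-fold) also fell short. *Hprt1* in S-AT 12W (2.60-fold lower) and *Rplp1* in TC 4W (2.19-fold higher) then reached it.

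**Figure D3:**
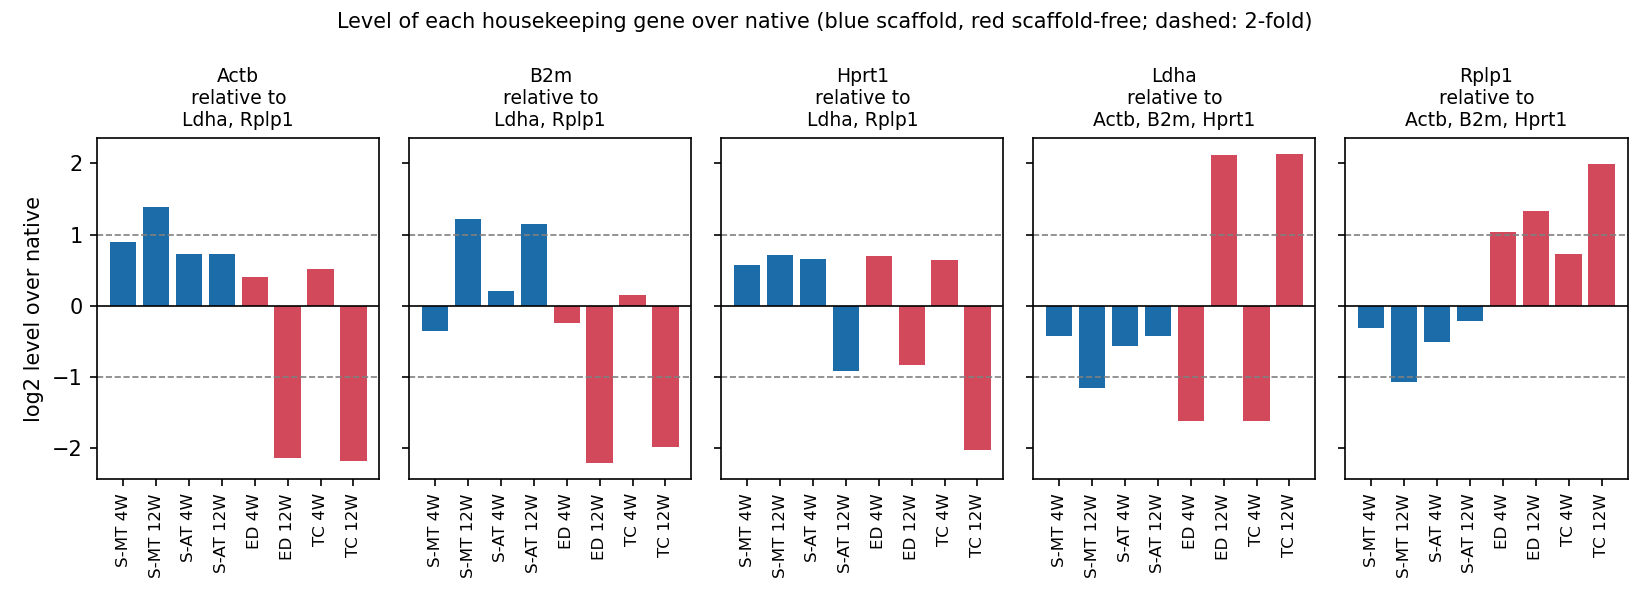
Log2 level over native tissue (vertical axis) of each housekeeping gene in the 8 operated groups, read against the genes named above each panel, with scaffold samples in blue, scaffold-free samples in red and dashed lines at 2-fold; *Hprt1* in TC 12W is an upper limit. *Ldha* is below -1 in ED and TC at 4 weeks and above 2 at 12 weeks, the 12-week values being 0.33 in ED and -0.053 in TC when read against the median of target genes.

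From 4 to 12 weeks the housekeeping genes moved apart in the scaffold-free treatments. *Ldha* was 13.2-fold higher at 12 than at 4 weeks in ED and at least 13.4-fold higher in TC against the other 3 genes, and 12.6-fold and at least 10.8-fold against the mean of the other 4. With the median of target genes the log2 change was smaller, 2.87 in ED and 1.86 in TC, beside 3.73 and 3.75 against the 3 genes. With S-MT its log2 change was -0.72 and with S-AT 0.13, and with the median of target genes 0.09 and 3.50. By that median the S-AT change was thus larger than those of ED and TC. The difference between treatments was not tested. In raw cycles *Ldha* in ED moved from 31.0 to 27.4 while *Rplp1* moved from 25.3 to 25.1, *Actb* from 27.9 to 28.5 and *B2m* stayed at 27.8. In TC *Ldha* moved from 32.5 to 31.2, earlier, while the other 4 genes moved later. *Ldha* was 1.81 cycles ahead of the genomic DNA control well in ED 12W and -0.78 cycles, that is behind it, in TC 12W. *Actb* was 5.78-fold lower at 12 weeks in ED and 6.51-fold lower in TC, and its log2 change was 0.49 with S-MT, and with S-AT it was level at 1.00-fold. *B2m* was 3.90-fold lower in ED and 4.40-fold lower in TC. With S-MT it was 2.97-fold higher, and its log2 change with S-AT was 0.94. These folds of *Actb* and *B2m* are against *Ldha* and *Rplp1*, and *Ldha* itself had moved. *Actb* minus *Rplp1* went from 2.57 to 3.39 cycles in ED and from 2.30 to 3.76 in TC. *B2m* minus *Rplp1* went from 2.42 to 2.66 in ED and from 1.86 to 2.76 in TC. Against *Rplp1* alone both ED changes were thus under 2-fold, as was that of *B2m* in TC.

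*Hprt1* was 2.96-fold lower at 12 than at 4 weeks in S-AT, 2.90-fold lower in ED and at least 6.38-fold lower in TC, and the S-AT value turned to a log2 change of 2.01 with the median of target genes. With that median the changes of *B2m* (-0.80) and *Hprt1* (-0.38) in ED fell below 2-fold. *Hprt1* minus *Rplp1* in ED went from 5.37 to 5.19 cycles, so *Hprt1* was not lower there against *Rplp1* alone. *Rplp1* was called only in TC, at least 2.40-fold higher, which turned to -0.62 with that median. Of the 3 and the 2 genes, 1 and 0 were called in S-MT, beside 39.2% and 13.7% of 51 target genes, and 1 and 0 in S-AT, beside 69.8% and 65.1% of 43. In ED 3 and 1 were called, beside 81% and 71.4% of 42, and in TC 3 and 2, beside 26.1% and 91.3% of 23. The share of target genes in TC thus depended on the reference. With the mean of the other 4 members, the changes of *B2m* (1.93-fold) and *Hprt1* (1.33-fold) in ED and of *B2m* (1.74-fold) and *Rplp1* (1.26-fold) in TC no longer reached 2-fold, and that of *B2m* in S-AT did (2.51-fold higher).

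Between the 2 scaffolds and between the 2 scaffold-free treatments all housekeeping genes but *Hprt1* at 12 weeks were within 2-fold when read against each other. This holds with *Hprt1* in TC 12W set to 35. *Rplp1* was at least 1.58-fold lower in ED 12W than in TC 12W, and 2.11-fold lower with the deposited Ct of *Hprt1*. At 4 weeks 0 of 3 and 0 of 2 were called between S-MT and S-AT, beside 6% and 6% of 50 target genes, and 0 and 0 between ED and TC, beside 54.2% and 54.2% of 24. *Ldha* in ED and TC at 4 weeks differed by 0.00 on the log2 scale. At 12 weeks *Hprt1* was the gene called in each comparison. It was 3.09-fold higher in S-MT than in S-AT, which turned to -2.17 on the log2 scale with the median of target genes, and 1 of 3 and 0 of 2 were called there beside 90.9% and 68.2% of 44. It was at least 2.29-fold higher in ED than in TC, where 1 of 3 and 0 of 2 were called beside 37.3% and 35.3% of 51. With the median of target genes the other 4 members differed between S-MT 12W and S-AT 12W by -3.86 (*Rplp1*) to -3.14 (*Actb*) on the log2 scale. The S-AT 12W sample is the one with late positive PCR control wells.

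Of the 16 target genes within the cut-off in all 9 groups, *Vegfa*, which encodes the vascular growth factor VEGF-A and like *Ldha* is known to be induced under low oxygen, followed *Ldha* most closely. Likeness was the SD over the 9 groups of the Ct difference, and it needs no reference. *Vegfa* crossed at 33.2 in native tissue, at 29.8 then 29.7 with S-MT, at 29.8 then 28.9 with S-AT, at 31.9 then 28.8 after ED, and at 34.2 then 33.0 after TC. *Vegfa* minus *Ldha* was 1.63 in native tissue, 1.46 then 1.75 with S-MT, 1.36 then 1.51 with S-AT, 0.83 then 1.42 after ED, and 1.77 then 1.83 after TC. All but ED 4W lay between 1.36 and 1.83, and the SD was 0.305 cycles, or 0.179 without ED 4W. This was the smallest SD of the 210 pairs among the 16 target and 5 housekeeping genes, ahead of *Anxa5* with *Col1a2* at 0.348 and *Col1a1* with *Col1a2*, the 2 chains of type I collagen, at 0.462. The median over the 16 genes was 1.95 cycles for *Ldha*, and the next gene for it was *Serpinh1*, a collagen chaperone, at 1.10.

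Read against *Rplp1*, *Vegfa* differed from native by -1.85 in ED 4W, -2.49 in TC 4W, 0.99 in ED 12W and -0.07 in TC 12W on the log2 scale, and by -0.20 to 0.21 in the 4 scaffold samples. *Ldha* on that scale was within -0.21 and -0.06 in the scaffold samples. Both genes thus stayed near native per *Rplp1* in scaffold samples and were low at 4 weeks in scaffold-free ones. For *Vegfa* in ED 4W this depended on the reference, with -0.52 against *Ldha* and *Rplp1* and -0.81 against *Actb*, *B2m* and *Hprt1*. In TC 4W these values were -1.32 and -1.76. Against *Rplp1* alone *B2m* (-1.57), *Actb* (-0.92) and *Hprt1* (-0.62) were lower in ED 4W too. There 8 of 20 target genes were at least 2-fold lower and 3 higher. The *Vegfa* windows in the RefSeq table, 250 bases before each of 2 starts, held 0 matches to ACGTG, and no sequence outside them was searched. The points share their plates, the template amount and the 2 wells compared, and 9 groups are few, so the likeness is a description.

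**Figure D4:**
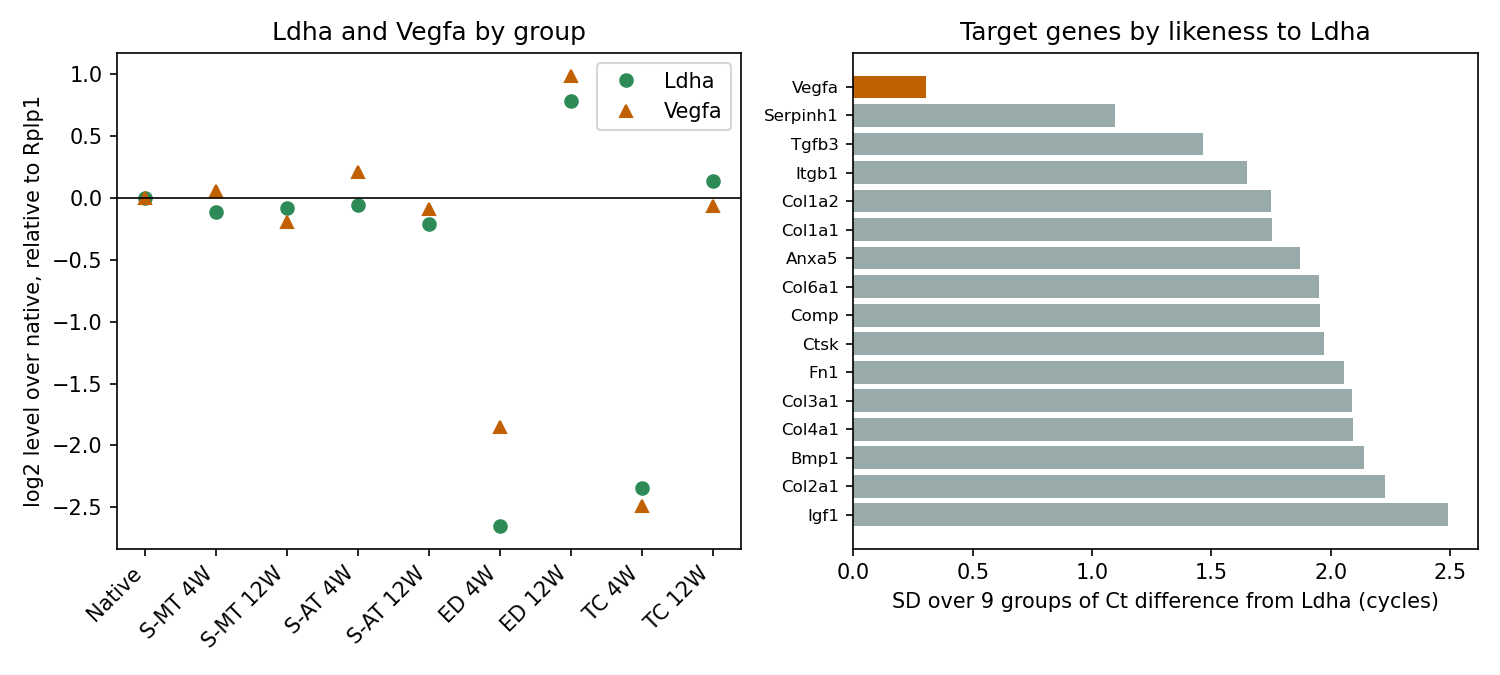
Left, log2 level over native of *Ldha* (circles) and *Vegfa* (triangles) read against *Rplp1* in the 9 groups; right, SD over the 9 groups of the Ct difference between *Ldha* and each of 16 target genes. Both genes are lowest in ED and TC at 4 weeks and lie farthest apart in ED at 4 weeks (-2.65 and -1.85), and *Vegfa* has an SD of 0.305 cycles against 1.10 for the next gene.

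The other members had looser companions. *Serpinh1* was nearest to *Actb* with an SD of 1.01 cycles, to *B2m* with 1.17 and to *Hprt1* with 0.809, and the second were *Col3a1* at 1.41, *Vegfa* at 1.45 and *Col1a2* at 0.971. *Rplp1* was nearest to *Vegfa* at 1.08 and *Serpinh1* at 1.13. Without S-AT 12W, the group with late positive PCR controls, the nearest gene changed for every member but *Ldha*. *Actb* was then nearest to *Col3a1* at 0.607, *Hprt1* to *Col1a2* at 0.584, *B2m* to *Anxa5* at 0.767 and *Rplp1* to *Igf1* at 0.445, while *Ldha* stayed nearest to *Vegfa* at 0.326.

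Target genes related to the members' roles were set beside them by counts. Of 5 actin-linked adhesion genes *Itgb1*, the beta-1 integrin that ties the cytoskeleton to collagen, could be measured in native tissue, and against *Ldha* and *Rplp1* it differed from native by 1.86 then 1.57 with S-MT, 1.61 then -2.43 with S-AT, 0.10 then -1.70 after ED, and -1.19 then -0.99 after TC on the log2 scale. Read against *Actb*, *B2m* and *Hprt1* it differed from native by 0.03 in ED 12W and 1.07 in TC 12W, so that its values there followed the reference. From 4 to 12 weeks 3 of 3 adhesion genes were lower in S-AT, where 69.8% of 43 target genes were called, with a median of -4.04 beside -2.23 over all target genes, and *Actb* there was level at 1.00-fold. Of 7 inflammatory genes set beside *B2m* none was within the cut-off in native tissue. In S-MT 3 of 4 were higher at 12 than at 4 weeks, where 39.2% of 51 target genes were called, with a median of 1.43 beside 0.92 over all target genes and 1.57 for *B2m*. Against *Actb*, *B2m* and *Hprt1* 1 of the 4 was higher, with a median of 0.69. In S-AT 3 of 4 were lower, where 69.8% of 43 were called, with a median of -1.64 beside -2.23 and 0.94 for *B2m*, and 2 of 4 against the 3 genes. In ED *Nfkb1*, a subunit of the NF-kappa-B transcription factor, was the only 1 of the 7 within the cut-off at both times. It differed by 2.49 against *Ldha* and *Rplp1* where *B2m* differed by -1.96. In that comparison 81% of 42 target genes were called, with a median of 0.75 over all target genes.

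For *Ldha* the list held the vascular genes *Vegfa*, *Vegfb* and *Flt1*, a VEGF receptor, read against *Actb*, *B2m* and *Hprt1*. In ED 2 of the 2 that could be measured were higher at 12 than at 4 weeks, where 71.4% of 42 target genes were called, *Vegfa* by 3.13 and *Flt1* by 4.53 on the log2 scale, with a median of 3.83 beside 2.76 over all target genes. In TC *Vegfa* differed by 3.69 beside a median of 2.55 over all target genes. In S-MT 1 of 3 was lower and in S-AT 1 of 3, with medians of -0.92 and -0.17 beside 0.18 and -2.02. With these 3 reference genes most target genes were higher at 12 weeks in the scaffold-free groups, and the vascular genes are to be read beside that median.

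What the reference pair did carried over to every target gene, since a change of reference adds 1 constant to all of them in a comparison. At ED 4W, where *Ldha* and *Rplp1* had parted, 11 of 20 target genes were at least 2-fold higher than native and 2 lower with the mean of both. With *Ldha* alone 15 were higher and 0 lower, and with *Rplp1* alone 3 were higher and 8 lower, shifts of 1.33 and -1.33 on the log2 scale. At TC 4W the count of 5 higher and 4 lower of 17 became 11 and 0 with *Ldha* and 2 and 6 with *Rplp1*. At 12 weeks *Ldha* minus *Rplp1* was 0.78 cycles from native in ED and 0.14 in TC, and in ED 4 target genes were higher and 6 lower with *Ldha* alone and 7 and 4 with *Rplp1* alone. With *Actb*, *B2m* and *Hprt1* the 4 higher and 4 lower target genes of ED 12W became 14 and 1, a shift of 1.72, and the 5 and 3 of TC 12W became 17 and 0, a shift of at least 2.06.

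The same held for change with time in the scaffold-free groups. From 4 to 12 weeks in ED 20 of 42 target genes were higher and 14 lower with the study's pair, 4 and 21 with *Ldha* alone, 27 and 4 with *Rplp1* alone, and 28 and 2 with the other 3. In TC 2 of 23 were higher and 4 lower with the pair, 0 and 15 with *Ldha*, 13 and 0 with *Rplp1*, and 21 and 0 with the other 3. In the scaffold groups at 4 weeks the choice among housekeeping genes mattered less. Under the pair 10 were higher and 0 lower for S-MT, and 8 and 3 under the other 3 genes, with 9 and 2 against 8 and 3 for S-AT. In S-MT 12W, however, 11 higher and 0 lower became 9 and 6, and from 4 to 12 weeks in S-MT 20 higher and 0 lower of 51 became 3 and 4. S-AT 12W kept its direction among housekeeping references, with 0 higher and 15 lower of 19 under the pair and 0 and 16 under the other 3. With the median of 16 target genes it had 5 higher and 6 lower, and S-MT 4W had 1 and 8. From 4 to 12 weeks in S-AT 0 higher and 30 lower of 43 under the pair became 24 and 5 with that median. The median is taken from the target genes themselves, which centers their values by construction.

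**Figure D5:**
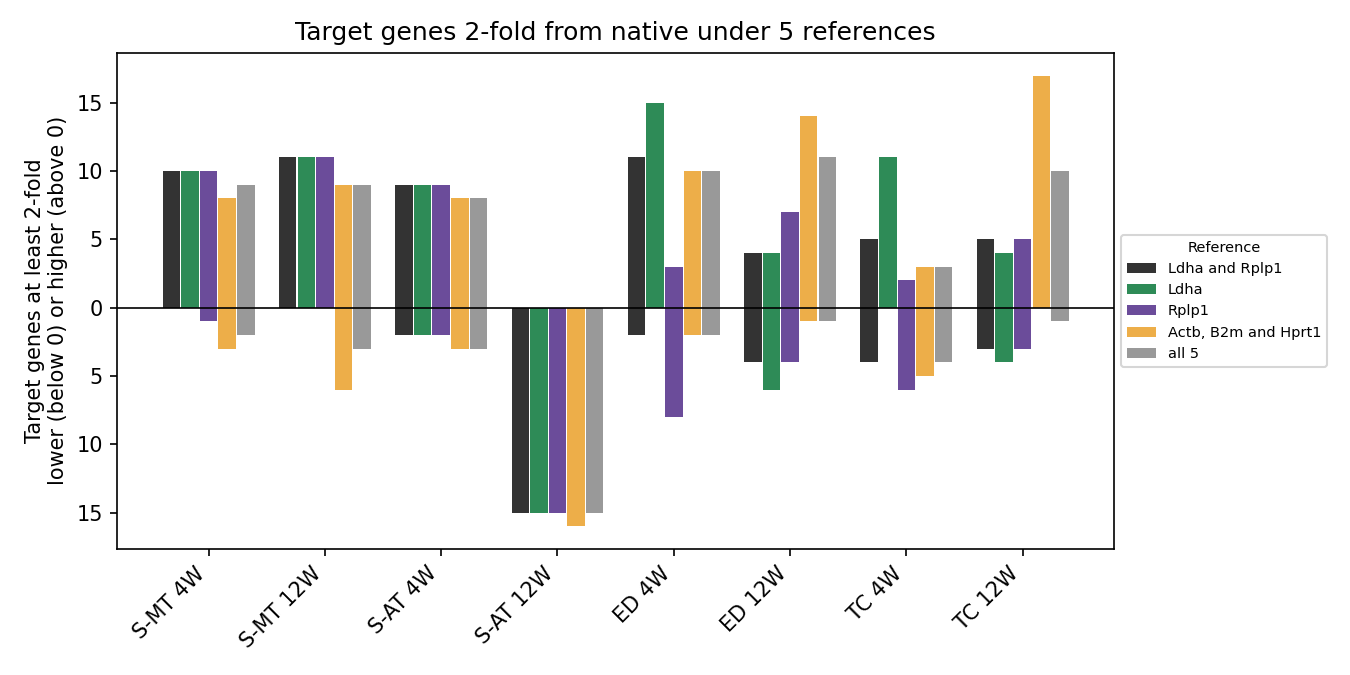
Number of target genes at least 2-fold higher (bars above 0) or lower (bars below 0) than native tissue in the 8 operated groups, for target genes within the cut-off in both groups, under 5 choices of reference given by colour. The bars of a group are alike in S-AT samples and change most in ED and TC, from 15 higher with *Ldha* to 3 higher and 8 lower with *Rplp1* in ED 4W. The median of 16 target genes, with which S-AT 12W has 5 higher and 6 lower, is not drawn.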

How the data were processed

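Deposited Ct values (threshold cycles, in PCR cycles) were taken from the authors' non-normalized table of 96 wells and 9 groups. The authors took the tissue for RNA after mechanical testing, for which samples had been stored frozen and thawed. Any effect of this on Ct was not tested. They made cDNA from phenol-chloroform extracted RNA and ran SYBR Green arrays on a real-time cycler. Their second deposited table holds relative levels, 2 to the power of minus the Ct difference from the average of *Rplp1* and *Ldha*, of which 495 of 505 lay within 0.05 cycles of those recomputed. The rows of the 5 housekeeping genes are empty there. Another deposited table with the authors' own fold changes was not used. Control wells (7 of 96) were named from the maker's usual layout.

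A Ct over 35 was set to 35, as in the study. Levels were minus the Ct difference from the reference genes, on the log2 scale, and a fold was 2 to the power of their difference. Genes were called at 2-fold in 16 comparisons: 8 with native, 4 of 12 with 4 weeks, and 4 between treatments. With 1 value per group no test was run, and counting depth does not apply. The arithmetic was tested on simulated Ct tables. All 5 members are named, with the 2 target genes of the smallest SD of the Ct difference, and up to 3 genes of each of 3 related lists with the lowest mean Ct. Members, lists and rules were chosen with earlier results of these data known. Python 3.11.15, pandas 2.3.3, numpy 2.4.6 and matplotlib 3.10.9 were used. All 89 symbols were found in the RefSeq table of GRCr8, which also gave coordinates and promoter windows. *Actb* had no window there.

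Alternatives were other references (single genes, the mean of the other 4 members, the median of 16 target genes), an amplification of 1.9 per cycle and leaving out groups. Ct as deposited, and likeness without S-AT 12W, were added after the data were seen.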

Additional observations from a re-analysis of the deposited data

Results flagged for a closer look

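*B2m*, read against *Ldha* and *Rplp1*, moved in opposite directions from 4 to 12 weeks, by 1.57 on the log2 scale in S-MT and by -1.96 in ED and -2.14 in TC. With the median of target genes the changes were 1.64, -0.80 and -1.52. *B2m* minus *Rplp1* went from 1.25 to -0.34 cycles in S-MT, from 2.42 to 2.66 in ED and from 1.86 to 2.76 in TC. Against *Rplp1* alone the ED and TC changes were thus under 2-fold. With 1 value per group the difference was not tested.

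The well taken as the genomic DNA control crossed at least 1 cycle earlier than in native tissue (34.9) in 4 groups, at a Ct of 30.9 in S-MT 12W, 32.5 in S-AT 4W, 29.2 in ED 12W and 30.4 in TC 12W. Its part in the Ct of the housekeeping genes was not tested.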

How the results depend on the processing

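The 8 called values of *Actb*, *B2m* and *Hprt1* over native became 15 with *Ldha* alone as reference and 5 with the mean of the other 4 members. With Ct as deposited the 2 values called between treatments became 3, as *Rplp1* in ED 12W against TC 12W reached 2-fold. They became 6 with the median of 16 target genes. That median, mostly of matrix genes, shifted every log2 value from the study's reference by between -1.40 (S-MT 4W) and 2.47 (S-AT 12W) in comparisons with native. It turned the sign of *B2m* in S-MT 12W (-0.10), *Ldha* in TC 12W (-0.053), *Rplp1* in ED 12W (-0.45) and TC 12W (-0.19) over native, of *Hprt1* in S-AT (2.01) and *Rplp1* in TC (-0.62) from 4 to 12 weeks, and of *Hprt1* in S-MT over S-AT at 12 weeks (-2.17). No other setting that was run turned a called value, but single-gene references were run for the members over native only. From 4 to 12 weeks in ED, *Hprt1* minus *Rplp1* went from 5.37 to 5.19 cycles, so the called fall of *Hprt1* did not hold against *Rplp1* alone. The 9 called values of *Ldha* and *Rplp1* over native ranged from 6 with *Hprt1* alone to 12 with *B2m* alone, and the 11 called over time from 8 to 12. The SD of *Ldha* minus *Rplp1* was 0.906 to 1.24 cycles when each group was left out in turn, and the median SD of the 10 pairs 1.10 to 1.24. The SD of *B2m* minus *Hprt1* moved from 1.02 to 0.619 cycles without S-AT 12W.

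No paired analysis was possible because each group has 1 value and no result comes from a test. Readings from the authors' normalized values and with each replicate left out were not run, since the normalized table is empty for these genes and holds no replicates. Precision is limited by the late Ct of native and TC samples, and no error between animals can be given.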
